A study of Mus musculus with 4 samples.

Results

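Late mature neutrophil genes were followed on 4 whole-transcript arrays, 1 for each of 4 groups of colony-forming cells. The set held 10 genes that neutrophils use at the end of their maturation or after release (Cxcr2, Retnlg, Ly6g, Padi4, Il1b, Trem1, S100a8, S100a9, Stfa2 and Stfa3), chosen by name out of 19938 genes with a probe set of their own. The choice was made with earlier results of these data known. The groups were LT-HSC CreER, LT-HSC mock, ST-HSC CreER and ST-HSC mock, all on a C57BL/6 background. LT-HSC are long-term and ST-HSC short-term haematopoietic stem cells. They had been transduced with CreER, a fusion protein of Cre recombinase and the oestrogen receptor's ligand-binding domain, or with mock. MLL-ENL, a fusion found in leukaemia, is named in the series title as conditionally expressed. The sources used here give no allele, Cre activation step, number of animals or pooling, and a CreER minus mock difference therefore compares transductions only. RNA came from colonies grown in methylcellulose with serum, IL-3, stem cell factor, IL-6 and GM-CSF, not from the stem cells themselves. With 1 array in every group no pairwise difference has a replicate spread, and precision is limited by there being only 4 arrays.

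Neutrophils mature in the marrow through stages marked by successive granule proteins. Primary granule genes such as Mpo come first, secondary granule genes such as Ltf follow, and chemokine receptors, cytokines and cytosolic proteins of the mature cell come last. CXCR2 draws mature neutrophils out of the marrow towards the chemokines CXCL1, CXCL2 and their relatives, against retention by CXCR4. Retnlg encodes a resistin-like protein, Ly6g the antigen by which mouse neutrophils are stained, and Padi4 the enzyme that citrullinates histones when neutrophils release chromatin traps. Il1b encodes the cytokine interleukin-1 beta, Trem1 a receptor that amplifies inflammatory signals through the adaptor TYROBP, and S100a8 and S100a9 the subunits of calprotectin. Stfa2 and Stfa3 encode stefins, intracellular inhibitors of cysteine proteases. Monocytes also use Il1b, Trem1, S100a8 and S100a9, so none of these 4 marks neutrophils alone.

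The promoters of 5 members are shown because the results turn on these genes: Cxcr2 and Retnlg shared a pattern over the arrays, Stfa2 and Stfa3 are neighbours that differed, and Il1b ran its own way. The sequences are RefSeq's for GRCm38.p6, 250 bases before to 50 after the start, which adds to 300. They lie at chr1:74153744-74154043 on the plus strand for Cxcr2, chr16:48872358-48872657 on the plus strand for Retnlg and chr16:36408314-36408613 on the minus strand for Stfa2. Those of Stfa3 and Il1b lie at chr16:36455343-36455642 and chr2:129371090-129371389, both on the minus strand. Capitals mark matches, on either strand, to TTNNGNAA, a loose form of the site of C/EBP factors of the granulocyte lineage, and to GAGGAA, the core bound by PU.1, a factor of all myeloid cells.
Cxcr2: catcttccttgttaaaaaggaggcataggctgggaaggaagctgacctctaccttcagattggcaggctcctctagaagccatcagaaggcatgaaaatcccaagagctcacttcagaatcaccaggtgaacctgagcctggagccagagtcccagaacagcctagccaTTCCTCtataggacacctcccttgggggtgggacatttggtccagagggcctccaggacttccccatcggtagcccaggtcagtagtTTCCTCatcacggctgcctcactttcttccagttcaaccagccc
Retnlg: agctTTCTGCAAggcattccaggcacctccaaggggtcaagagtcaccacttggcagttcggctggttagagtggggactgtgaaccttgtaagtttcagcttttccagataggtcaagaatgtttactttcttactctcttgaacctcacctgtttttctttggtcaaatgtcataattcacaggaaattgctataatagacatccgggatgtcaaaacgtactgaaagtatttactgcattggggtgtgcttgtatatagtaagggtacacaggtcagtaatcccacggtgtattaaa
Stfa2: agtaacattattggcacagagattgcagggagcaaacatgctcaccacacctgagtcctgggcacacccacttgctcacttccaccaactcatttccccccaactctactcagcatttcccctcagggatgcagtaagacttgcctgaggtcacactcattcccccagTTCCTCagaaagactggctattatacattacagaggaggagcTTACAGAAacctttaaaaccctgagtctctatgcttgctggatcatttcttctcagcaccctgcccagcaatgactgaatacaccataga
Stfa3: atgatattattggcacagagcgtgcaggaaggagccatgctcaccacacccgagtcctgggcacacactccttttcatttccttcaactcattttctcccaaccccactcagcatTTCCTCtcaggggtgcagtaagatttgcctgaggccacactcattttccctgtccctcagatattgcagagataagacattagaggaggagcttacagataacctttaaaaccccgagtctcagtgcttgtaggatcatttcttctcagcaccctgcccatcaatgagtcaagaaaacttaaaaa
Il1b: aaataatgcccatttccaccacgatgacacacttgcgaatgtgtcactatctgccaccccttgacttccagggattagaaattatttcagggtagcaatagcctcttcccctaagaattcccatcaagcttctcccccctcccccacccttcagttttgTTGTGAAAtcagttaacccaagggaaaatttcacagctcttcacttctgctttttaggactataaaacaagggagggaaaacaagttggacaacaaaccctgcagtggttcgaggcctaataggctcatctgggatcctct
All 10 members matched the promoter table, and over their first listed starts 7 held the C/EBP string and 6 the PU.1 string. Among all 32851 promoters in the table these shares were 40.7% and 28.3%. The strings can overlap but did not in the 5 promoters shown. Cxcr2 held 2 PU.1 strings and no C/EBP string, whereas Retnlg held 1 C/EBP string and no PU.1 string. A match is a description of the letters only. The Stfa2 and Stfa3 promoters were 81.0% identical when aligned end to end, against 44.2% to 53.3% for the 44 other pairs of members. RefSeq lists 0 protein-coding genes that start between Stfa2 and Stfa3 on chromosome 16, and 0 genes of any kind between S100a8 and S100a9 on chromosome 3.

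All 10 members stood above the signal floor on all 4 arrays. The floor is the median of each array over probe sets with 1 gene symbol and lay between 8.07 and 8.13 on the log2 scale of the deposited values, which run up to 14.82. The colonies had the transcripts of neutrophils at other stages too: all 10 secondary granule genes listed were above the floor on every array, and so were all 20 measured members of a list of other late neutrophil genes. Of 11 primary granule and progenitor genes, 11, 11, 11 and 10 were above it in LT-HSC CreER, LT-HSC mock, ST-HSC CreER and ST-HSC mock, Cd34 being the exception in ST-HSC mock at 7.87. Array medians lay between 7.75 and 7.82.

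**Figure D1:**
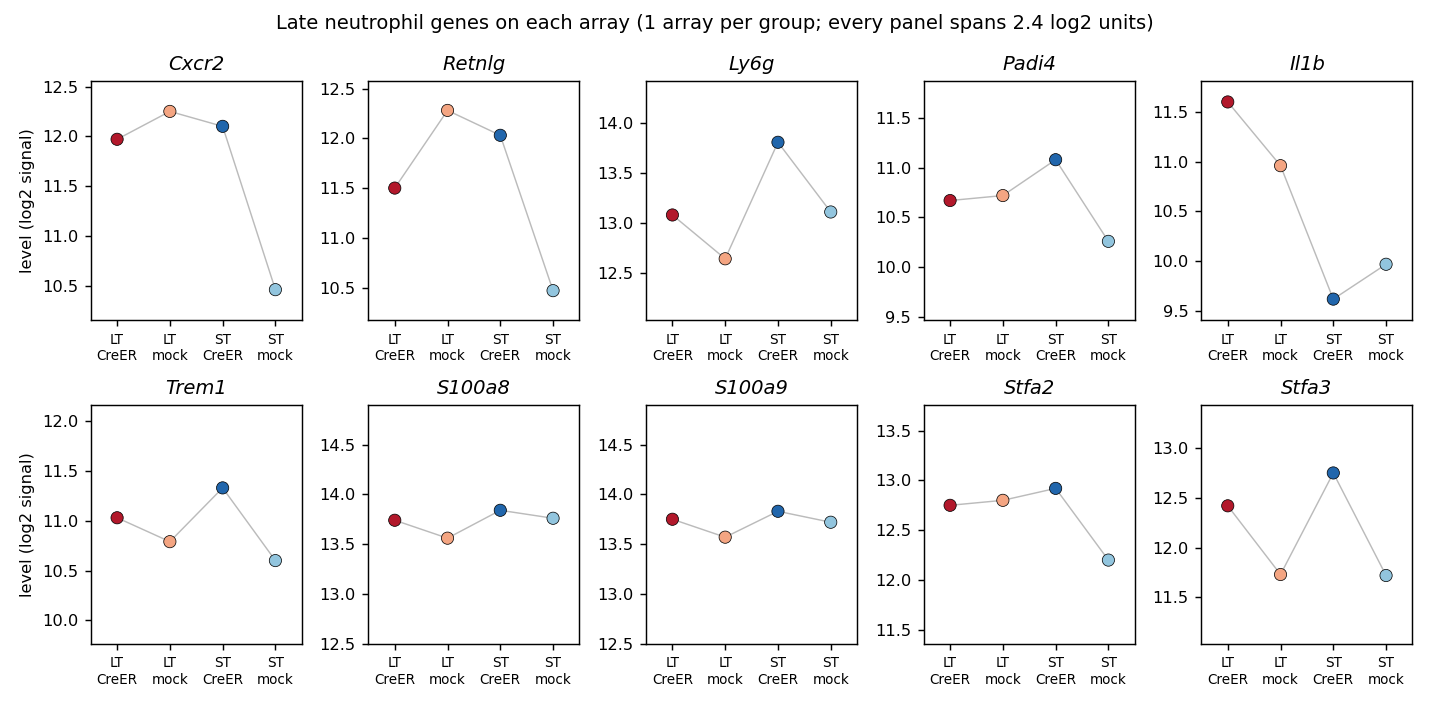
Log2 level of each of the 10 genes on each array (LT is LT-HSC, ST is ST-HSC; 1 point per array, no error bars because each group is 1 array; lines only guide the eye). Cxcr2 and Retnlg are lowest on the ST-HSC mock array, at 10.46 and 10.47, S100a8 and S100a9 stay within 0.28 and 0.26 log2 units over all arrays, and Il1b is high on both LT-HSC arrays.

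The members did not follow 1 pattern over the arrays. The ST-HSC CreER array was the highest for 7 of the 10 members, against 23.4% of the 10411 genes above the floor on at least 1 array. The ST-HSC mock array was the lowest for 6 of them, against 16.7% of those genes. Some margins behind these counts were small. Stfa3 and Trem1 were lowest in ST-HSC mock by 0.02 and 0.19, and S100a8 was highest in ST-HSC CreER by 0.08. The 3 members whose top lay elsewhere were Cxcr2 and Retnlg, highest in LT-HSC mock (28.6% of genes), and Il1b, highest in LT-HSC CreER (20.8%). The lowest array was LT-HSC mock for Ly6g, S100a8 and S100a9 (28.1% of genes) and ST-HSC CreER for Il1b (25.2%). In 5 of the 10 genes the range over the 4 arrays stayed under 1 log2 unit, against 94.8% of genes. The LT-HSC minus ST-HSC difference had opposite signs with CreER and with mock in 6 members, against 30.0% of genes. In bulk RNA, fewer neutrophils in a colony and less of a transcript per neutrophil cannot be told apart.

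Cxcr2 and Retnlg were lower in ST-HSC mock cells than in each of the other 3 groups, by at least 1 log2 unit. Cxcr2, the receptor for neutrophil-attracting chemokines, stood at 11.97 in LT-HSC CreER and 12.25 in LT-HSC mock, and at 12.10 in ST-HSC CreER and 10.46 in ST-HSC mock. The other 3 arrays lay within 0.27 log2 units of each other, and ST-HSC mock lay 1.51 under the nearest of them. Retnlg, the resistin-like gene of neutrophils, stood at 11.50 in LT-HSC CreER and 12.28 in LT-HSC mock, and at 12.03 in ST-HSC CreER and 10.47 in ST-HSC mock. Its other 3 arrays were spread over 0.79 log2 units, with a gap of 1.03 down to ST-HSC mock. Once each gene was centred on its own mean, the profiles of Cxcr2 and Retnlg were 0.21 log2 units apart (root mean square over 4 arrays). That was less than the distance of Cxcr2 to any other member, the nearest being Stfa2 at 0.46.

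The CreER minus mock difference of both genes had opposite signs in the populations, as it did for 5 of the 10 members and 41.9% of genes. In ST-HSC-derived cells Cxcr2 was 3.11-fold higher with CreER and Retnlg 2.96-fold, log2 differences of 1.64 and 1.57, the 6th and 8th highest of 10047 genes. In LT-HSC-derived cells the CreER minus mock differences were -0.27 for Cxcr2 and -0.79 for Retnlg. The LT-HSC effect minus the ST-HSC effect was thus -1.91 for Cxcr2 and -2.35 for Retnlg. Only 1.18% of 10411 genes had a CreER effect at least 1 log2 unit larger in ST-HSC-derived cells, and these were the 2 members among them. With 1 array per group this difference of differences has no test.

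In ST-HSC-derived cells, 9 of the 10 members were higher with CreER than with mock, with a median difference of 0.73 against -0.03 over all genes past the floor. Cxcr2, Retnlg and Stfa3 were at least 2-fold higher and none was 2-fold lower, against 0.518% of 10047 genes 2-fold apart either way, 0.438% higher and 0.0796% lower. The differences of 7 members lay among the 100 highest of those 10047. Differences above 0 made up 42.6% of those genes. Stfa3, a protease inhibitor of the stefin family, was at 12.75 with CreER and 11.72 with mock, a 2.06-fold difference. The next members were under the 2-fold line, and Padi4, the histone-citrullinating enzyme, led them at 11.08 with CreER against 10.26 with mock (1.76-fold).

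Trem1, the amplifying receptor, stood at 11.33 with CreER and 10.60 with mock in ST-HSC-derived cells. Stfa2 stood at 12.92 with CreER and 12.20 with mock, and Ly6g at 13.81 with CreER and 13.11 with mock. These 3 genes were 1.66-fold, 1.64-fold and 1.63-fold higher with CreER. S100a8 and S100a9, the calprotectin genes, differed by only 0.08 and 0.11. Il1b was the 1 member lower with CreER, at 9.62 against 9.97 with mock, a log2 difference of -0.35.

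**Figure D2:**
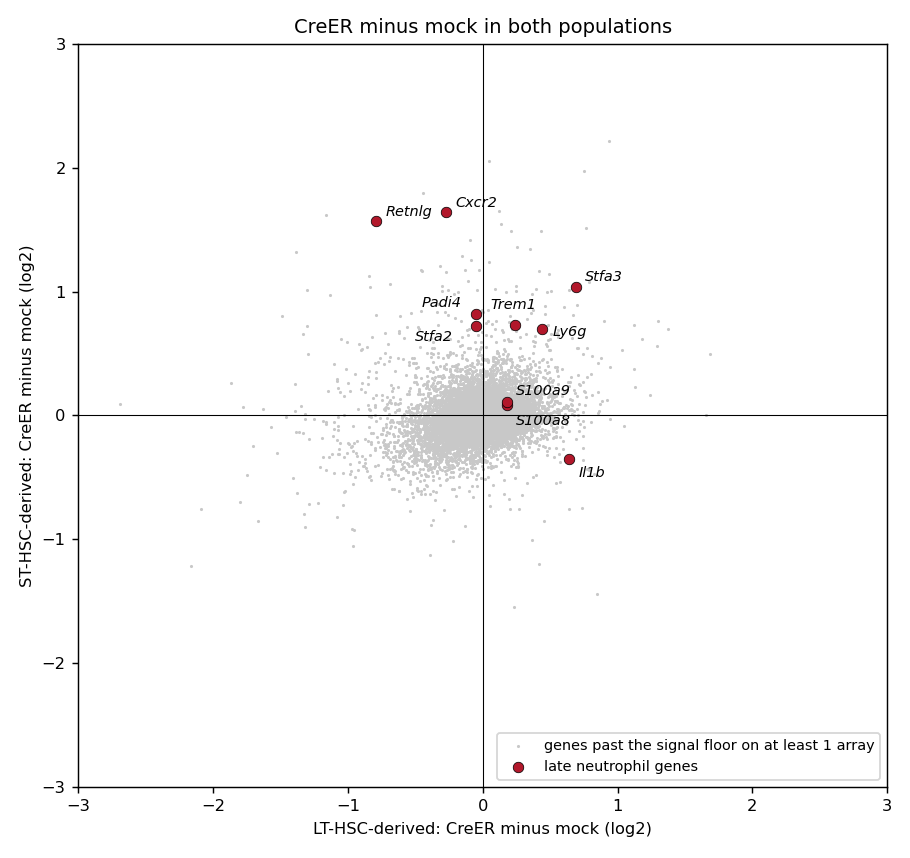
CreER minus mock in LT-HSC-derived cells (horizontal axis) against the same in ST-HSC-derived cells (vertical axis), in log2 units, for 10411 genes past the floor (grey) and the 10 late neutrophil genes (red). Cxcr2 and Retnlg lie high on the vertical axis at 1.64 and 1.57 but left of 0 on the horizontal one, Stfa3 is raised on both, and Il1b is the 1 red point below the horizontal line.

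In LT-HSC-derived cells the same genes split. Of the 10, 6 were higher and 4 lower with CreER, with a median of 0.18 against -0.03 over all genes past the floor, and 0 were at least 2-fold apart, against 0.875% of 10172 genes (0.108% higher and 0.767% lower). Differences above 0 made up 44.4% of those genes. Retnlg had the largest difference, -0.79, and among the 6 higher members Stfa3 led, at 12.42 with CreER against 11.73 with mock (1.62-fold), and Il1b followed at 11.60 against 10.96 (1.55-fold). Ly6g stood at 13.08 with CreER and 12.64 with mock (1.35-fold). Those 3 genes were the 60th, 83rd and 264th highest of 10172.

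Trem1 stood at 11.03 in LT-HSC CreER and 10.79 in LT-HSC mock, a difference of 0.24, and Padi4 at 10.67 in LT-HSC CreER and 10.72 in LT-HSC mock. In the same cells S100a8 and S100a9 differed by 0.18 each. Retnlg, Cxcr2, Padi4 and Stfa2 were the 4 members lower with CreER, the last 2 by -0.05 each. Stfa2 and Stfa3, neighbours with like promoters, thus differed in LT-HSC-derived cells: Stfa2 was at 12.75 with CreER and 12.80 with mock, where Stfa3 was higher with CreER. Stfa2 belongs to a cluster of closely related genes. A further probe set, assigned to Stfa2 and a related stefin gene together and so given no gene name, stood at 12.94 in LT-HSC CreER, 13.02 in LT-HSC mock, 13.06 in ST-HSC CreER and 12.65 in ST-HSC mock. Its lowest array was the same as that of the Stfa2 probe set. Whether the probes of 1 stefin gene also detect another was not tested.

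**Figure D3:**
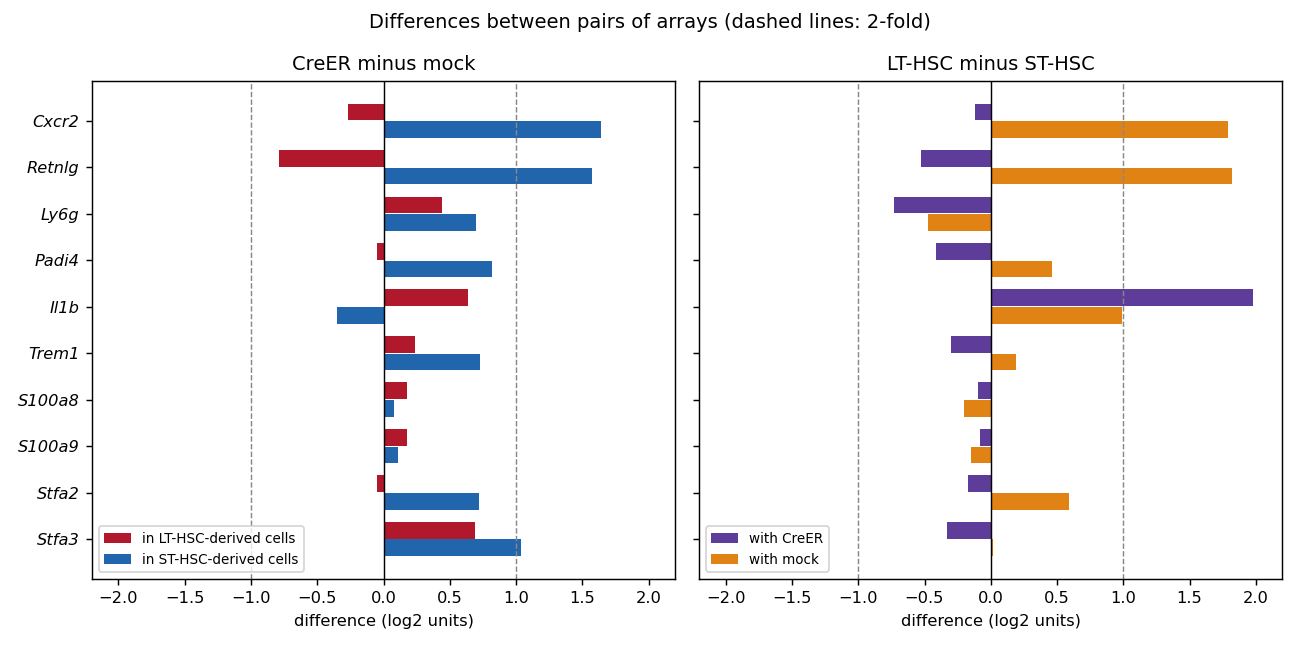
Log2 differences between pairs of arrays for each gene; left, CreER minus mock in LT-HSC-derived (red) and ST-HSC-derived cells (blue); right, LT-HSC minus ST-HSC with CreER (purple) and with mock (orange). Dashed lines mark 2-fold. Cxcr2 and Retnlg pass 2-fold in the 2 comparisons that use the ST-HSC mock array, Stfa3 in ST-HSC-derived cells only (1.04), and Il1b with CreER only (1.98), with 0.99 under mock.

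An additive limma fit put both populations together, with a term for population and a term for transduction. For transduction it called 0 of the 10 members and 0 of 10411 genes (0.0%) at 0.05 after Benjamini-Hochberg adjustment, whereas 1048 genes had an unadjusted p under 0.05. Each gene has 1 residual degree of freedom in this fit, and the difference between the populations' CreER effects counts as error. Stfa3 had the largest estimate, 0.87 ± 0.12 (SE; limma adjusted p = 0.316), and was higher with CreER in both populations. Ly6g was at 0.57 ± 0.11 (SE; limma adjusted p = 0.316) and Trem1 at 0.49 ± 0.14 (SE; limma adjusted p = 0.394). These 3 were the members with an unadjusted p under 0.05. Cxcr2 and Retnlg, which differed in sign between the populations, had wider errors, at 0.68 ± 0.43 and 0.39 ± 0.52 (SE). Both CreER arrays stood above both mock arrays for 3 members, S100a9, Trem1 and Stfa3, against 11.2% of genes. For S100a9 the margin was small, with 13.75 in LT-HSC CreER and 13.72 in ST-HSC mock.

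Il1b was higher in LT-HSC-derived cells. It stood at 11.60 in LT-HSC CreER and 9.62 in ST-HSC CreER, and at 10.96 in LT-HSC mock and 9.97 in ST-HSC mock, so both LT-HSC arrays were above both ST-HSC arrays, the 1 member with that order (24.6% of genes). The difference was 3.94-fold with CreER, the 27th highest of 10189 genes, and 1.99-fold with mock. The limma population term for Il1b was 1.49 ± 0.23 (SE; adjusted p = 0.0307, higher on 2 of 2 pairs of arrays). The adjusted p was 0.0579 after cyclic loess normalization and 0.063 with the floor at the 75th percentile, which end the call. Ly6g ran the other way, at 13.08 in LT-HSC CreER and 13.81 in ST-HSC CreER, and at 12.64 in LT-HSC mock and 13.11 in ST-HSC mock. Ly6g and S100a8 were the 2 members lower on both LT-HSC arrays than on both ST-HSC arrays, as were 30.2% of genes. For S100a8 the margin was small, with 13.74 in LT-HSC CreER and 13.76 in ST-HSC mock, and its population term did not pass (-0.15; limma adjusted p = 0.386). The population term of Ly6g was -0.60 ± 0.11 (SE; limma adjusted p = 0.044, lower on 2 of 2 pairs of arrays), and the call was lost under 4 of 7 alternatives, with adjusted p between 0.0511 and 0.0667.

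These were the 2 of 10 members past the threshold for the population term, 1 higher and 1 lower, against 6.27% of all genes (3.78% higher and 2.49% lower). Over all genes 394 were called higher and 259 lower, and with each array centred on its median 325 higher and 339 lower. By the size rule, 1 member was 2-fold apart between LT-HSC CreER and ST-HSC CreER, Il1b, against 1.94% of 10189 genes (1.39% higher and 0.55% lower). The other 9 members were below 0 there, where 46.1% of genes were above 0, and ran from -0.73 for Ly6g to -0.08 for S100a9, with a median over all 10 of -0.24 against -0.02 for all genes past the floor. With mock, 2 members were 2-fold apart, Retnlg (1.82) and Cxcr2 (1.79), both higher in LT-HSC-derived cells, against 3.12% of 10208 genes (2.72% higher and 0.402% lower). Of the 10, 7 were above 0, against 45.1% of genes. Il1b was just under the line there at 0.99. The mock comparison and the CreER comparison in ST-HSC-derived cells share the ST-HSC mock array, so their values for Cxcr2 and Retnlg are not separate observations.

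S100a8 and S100a9 varied least over the arrays. S100a8 stood at 13.74 in LT-HSC CreER, 13.56 in LT-HSC mock, 13.84 in ST-HSC CreER and 13.76 in ST-HSC mock. S100a9 stood at 13.75, 13.57, 13.83 and 13.72 in the same order. The centred profiles of these partners were 0.02 log2 units apart, the closest of the 45 pairs of members. Padi4 and Stfa2 came next at 0.10, and Ly6g and Il1b were the farthest apart at 1.11. Whether the strong signals of S100a8 and S100a9 were compressed was not tested.

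Of 6 measured genes for ligands of CXCR2, 4 were higher in LT-HSC-derived cells, and Cxcl5 and Cxcl15 were under the floor on all arrays. Cxcr2 itself did not pass limma's population term (0.83 ± 0.43 SE; adjusted p = 0.292). Of the 10 other genes of the CXCR2 and CXCR4 axis, 5 were above the floor on at least 1 array. In the limma population term 4 of these rose in LT-HSC-derived cells, against 3.78% of all genes. Cxcl2, a neutrophil-attracting chemokine, stood at 13.09 in LT-HSC CreER and 10.75 in ST-HSC CreER, and at 12.99 in LT-HSC mock and 10.96 in ST-HSC mock (2.19; adjusted p = 0.00421). The population terms of the related Cxcl3, Cxcl1 and Ppbp were 2.11, 1.39 and 2.79 (limma adjusted p = 0.00421, 0.00761 and 0.00761); Cxcl1 was under the floor on both ST-HSC arrays, at 7.81 with CreER and 8.04 with mock. Cxcr4, the marrow retention receptor, ranged only from 12.69 to 12.93. Ppbp was 1.35 higher with CreER in ST-HSC-derived cells and, like Cxcr2, lowest in ST-HSC mock. None of the 5 passed limma's threshold for CreER. Markers of other cells were higher in LT-HSC-derived cells too. In the limma population term 6 of 10 mast cell and basophil genes and 4 of 5 megakaryocyte genes rose, against the same 3.78%. Their part in the ligand differences, including that of Ppbp, a platelet gene, was not tested.

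Among the other 10 measured genes of the interleukin-1 system, 1 rose and 1 fell in the population term, against 3.78% and 2.49% of all genes. Il1a, the second agonist cytokine of the family, was at 11.46 in LT-HSC CreER and 10.04 in ST-HSC CreER, and at 11.61 in LT-HSC mock and 10.50 in ST-HSC mock (1.27; limma adjusted p = 0.00899). Il18, a cytokine processed by the same inflammasome, was lower in LT-HSC-derived cells (-1.12; limma adjusted p = 0.00899), where it was under the floor on both arrays. Il1rn, the receptor antagonist, lay between 12.32 and 12.40 on all arrays. The inflammasome genes Nlrp3, Pycard and Casp1 did not pass, with population differences of 0.26, -0.60 and -0.66 under CreER and 0.04, -0.40 and -0.08 under mock.

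**Figure D4:**
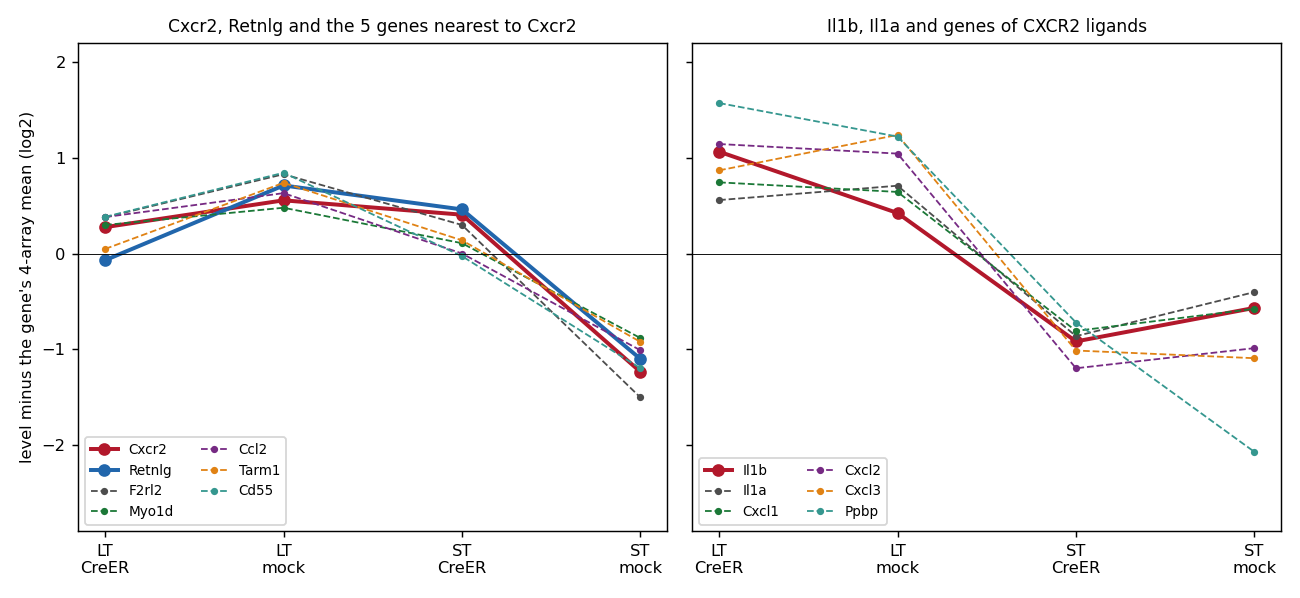
Log2 level minus each gene's mean over the 4 arrays; left, Cxcr2 and Retnlg (solid) with the 5 genes nearest to Cxcr2 (dashed); right, Il1b (solid) with Il1a and the CXCR2 ligand genes above the floor (dashed). Lines only guide the eye. The left group dips on ST-HSC mock, where F2rl2 stands at 9.62 against 11.42 on ST-HSC CreER, and the right group is high on both LT-HSC arrays.

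Relatives of the other members follow, here and in the next paragraph. Over all genes, 6.27% passed the limma population term (3.78% higher and 2.49% lower). Of 11 genes tied to TREM1 signalling, 1 fell in the population term, Treml4 (-0.90; limma adjusted p = 0.012), while the adaptor Tyrobp lay between 13.32 and 13.53. Trem2, a macrophage relative of Trem1, was at 10.19 in LT-HSC CreER and 11.31 in LT-HSC mock, past the 2-fold line. Of the 4 other deiminase genes only Padi2 was above the floor, and it rose in LT-HSC-derived cells (1.91; limma adjusted p = 0.00436), at 10.04 in LT-HSC CreER and 8.31 in ST-HSC CreER and at 10.40 in LT-HSC mock and 8.30 in ST-HSC mock. All 5 measured NADPH oxidase genes, which serve the respiratory burst, were above the floor and none passed either term. In ST-HSC-derived cells they differed by 0.01 to 0.26 between CreER and mock.

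Of the 6 other Ly6 genes with a probe set of their own, 2 were above the floor, Ly6e and Ly6i, and neither passed. Ly6a, Ly6c1 and Ly6c2 had no such probe set. Retnla, a resistin-like gene of macrophages, was the 1 relative of Retnlg above the floor, and only in LT-HSC mock, at 8.11. It stood at 7.0 in LT-HSC CreER, 5.31 in ST-HSC CreER and 5.77 in ST-HSC mock, and unlike Retnlg it rose in LT-HSC-derived cells in the population term (2.02; limma adjusted p = 0.00761), largely over levels below the floor. Of the 14 other S100 genes and receptors, 8 were above the floor and 0 passed. Among 5 measured stefins and cystatins, Cst7, an inhibitor of lysosomal cysteine proteases, rose in LT-HSC-derived cells in that term (0.67; limma adjusted p = 0.0264). Cstdc6, of the stefin A family, was lowest in ST-HSC mock like Stfa2, at 9.31 in LT-HSC CreER, 9.34 in LT-HSC mock, 9.48 in ST-HSC CreER and 8.30 in ST-HSC mock.

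Among the neutrophil and progenitor lists, the late genes had the largest median difference with CreER in ST-HSC-derived cells. The eosinophil median (1.08) and the mast cell and basophil median (0.75) were larger in the same comparison. Of all genes past the floor, 42.6% were above 0 in ST-HSC-derived cells. The median there was 0.73 for the 10 members, 0.29 for 20 other late neutrophil genes (16 above 0), 0.24 for 10 secondary granule genes (8 above 0) and 0.00 for 11 primary granule and progenitor genes (6 above 0). The gelatinase gene Mmp9 (2.05), the protease gene Asprv1 (1.02) and Ceacam10 (1.49) were 2-fold higher among them. In LT-HSC-derived cells the medians were 0.18, 0.14, 0.20 and 0.50 for the same lists. The largest was that of the primary granule and progenitor genes, all 11 of which were above 0, against 44.4% of genes. Fcnb (1.65) and Cd34 (1.13) were 2-fold higher there. None of these lists had a member past limma's threshold for CreER, and no difference between lists was tested. The lists were chosen with earlier results of these data known, so the order of their medians is a description only.

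**Figure D5:**
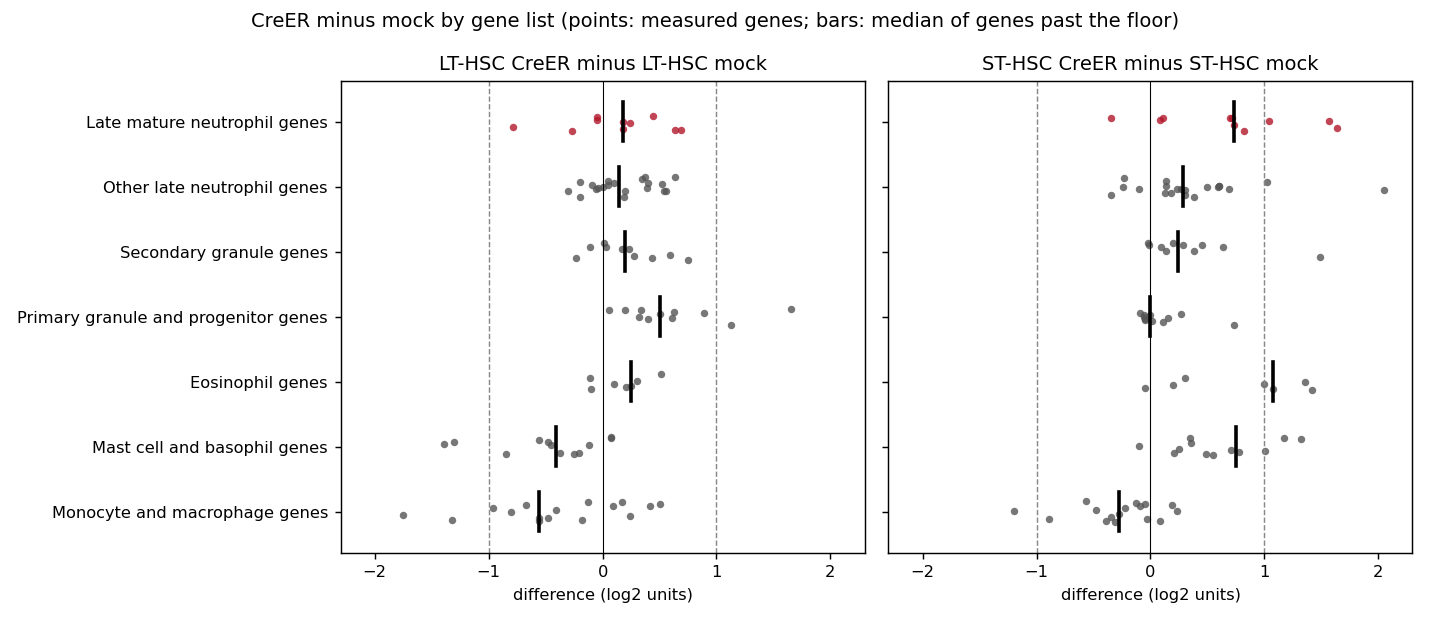
CreER minus mock differences in log2 units for 7 gene lists; left, LT-HSC-derived cells; right, ST-HSC-derived cells. Points are measured genes, bars are medians of genes past the floor, dashed lines mark 2-fold. The late neutrophil median is 0.18 on the left and 0.73 on the right, and the eosinophil median, 0.25 and 1.08, lies on the same side.

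The summed signals of eosinophil genes and of mast cell and basophil genes were, like Cxcr2 and Retnlg, lowest in ST-HSC mock. The summed linear signal of 7 eosinophil genes was 22548 in LT-HSC CreER, 20200 in LT-HSC mock, 16145 in ST-HSC CreER and 7273 in ST-HSC mock, with 5 of the 7 above the floor on every array and Il5ra and Ccr3 below it on all. Prg2, an eosinophil granule protein gene, stood at 12.73, 12.82, 12.12 and 10.70 in the same order of arrays. For 12 mast cell and basophil genes the sums were 36804, 44804, 13992 and 9224, with 10, 10, 8 and 5 above the floor. Cpa3, the mast cell carboxypeptidase gene, was at 13.09, 13.54, 12.31 and 11.15. In ST-HSC-derived cells 7 of 8 mast cell and basophil genes past the floor were higher with CreER (median 0.75), against 42.6% of genes. In LT-HSC-derived cells 1 of 10 was higher (median -0.41), against 44.4%. Fcer1a and Tph1 had opposite signs, at -1.3 and -1.39 in LT-HSC-derived cells and 1.01 and 1.32 in ST-HSC-derived cells. The basophil protease genes Mcpt8 and Prss34 differed by 0.21 and -0.10 between ST-HSC CreER and ST-HSC mock. Between LT-HSC CreER and ST-HSC CreER the mast cell and basophil median was 1.35, the eosinophil median 0.61 and the Cxcr2 difference -0.12. The part of mast cells, basophils and eosinophils in the Cxcr2 and Retnlg differences was not tested.

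The sums of 16 monocyte and macrophage genes were 26768, 39251, 36906 and 45909, highest in ST-HSC mock, with 12, 13, 11 and 13 above the floor and C1qa, C1qb and C1qc below it throughout. With CreER against mock, 10 of 13 of these genes past the floor were lower in LT-HSC-derived cells (median -0.56) and 12 of 13 in ST-HSC-derived cells (median -0.28). Differences above 0 made up 44.4% and 42.6% of all genes past the floor in these comparisons. F13a1, a monocyte transglutaminase gene, was highest in ST-HSC mock, at 11.24, 10.82, 10.98 and 12.18, whereas Klf4, a transcription factor gene of monocytes, was highest in LT-HSC mock, at 9.54, 10.49, 9.80 and 10.02. The part of these cells in the Cxcr2 and Retnlg differences was not tested. The sums of 10 secondary granule genes, of which Lyz2, Chil3 and Anxa1 are also expressed by monocytes and macrophages, were 102288, 92063, 123060 and 104523, so they were not lowest in ST-HSC mock.

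The genes whose centred profile lay nearest to that of Cxcr2, over 4 arrays and leaving out members, were F2rl2 (0.20 log2 units root mean square distance), Myo1d (0.23), Ccl2 (0.24), Tarm1 (0.25) and Cd55 (0.26). F2rl2, of the thrombin receptor family, stood at 11.50 in LT-HSC CreER, 11.95 in LT-HSC mock, 11.42 in ST-HSC CreER and 9.62 in ST-HSC mock. Cd55 was under the signal floor in ST-HSC mock, at 7.4. Nearest to Il1b, the member with the widest range at 1.98, were Tmem176b (0.11), Snord118 (0.14), Fosb (0.15), Tet1 (0.16) and Mc5r (0.18). Tmem176b and Tet1 were under the floor on both ST-HSC arrays, at 7.98 and 7.36 with CreER and 8.04 and 7.53 with mock. Snord118 was under it in ST-HSC CreER, at 8.0, and Mc5r was above it in LT-HSC CreER alone, at 8.3. Fosb, an immediate early transcription factor gene, stood at 10.19 in LT-HSC CreER, 9.54 in LT-HSC mock, 8.26 in ST-HSC CreER and 8.22 in ST-HSC mock. These distances describe 4 arrays and carry no test.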

How the data were processed

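Biotin-labelled RNA of 4 samples was measured on Affymetrix whole-transcript arrays, per the labels' protocols. The authors deposited 1 log2 value per probe set, and the values span 2.21 to 14.82; that they are log2 was judged from this span. The submitters' processing notes name Affymetrix Expression Console. The sources used here give neither its version nor the summarisation and normalization methods, which can shrink differences of weakly expressed genes.

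Of 35556 probe sets, 21789 had 1 gene symbol in the platform annotation, 1621 several and 12146 none here. Only the first were named, giving 19938 genes. The 999 genes with several probe sets were represented by the brightest; each member had 1. Pairwise differences used a size rule, at least 2-fold with the higher array above its median (the signal floor), and no test. The additive fit used limma 3.58.1 in R 4.3.3 (lmFit, eBayes) over 10411 genes, with Benjamini-Hochberg adjustment. Nothing says whether samples came from separate animals, so its p-values cover only these arrays. Each error combines the gene's own residual (1 degree of freedom) with a prior variance estimated from all tested genes (4.27 degrees of freedom). Promoters were aligned with Biopython 1.88.

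The members and lists were chosen with earlier results of these data known. Besides the 10 members, the named genes were up to 4 of each of 19 other lists meeting the size rule and the 5 genes nearest in profile to Cxcr2 and to the member of widest range. Other list genes named as examples were chosen after their values were seen. Alternatives were quantile, cyclic loess and median normalization, no floor or a floor at the 75th percentile, 1.5-fold and 3-fold thresholds, the mean of probe sets, a trend in the prior and an adjusted p of 0.1.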

Additional observations from a re-analysis of the deposited data

Results flagged for a closer look

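For 5 members the CreER minus mock difference had opposite signs in the populations, against 41.9% of genes, and for 6 members the LT-HSC minus ST-HSC difference had opposite signs with CreER and with mock, against 30.0%. Both are the same difference of differences, the LT-HSC effect of CreER minus the ST-HSC effect, and it was not tested. It was -1.91 for Cxcr2, -2.35 for Retnlg, -0.87 for Padi4 and -0.76 for Stfa2, each opposite in sign in both contrasts. It was 0.98 for Il1b, opposite in sign for CreER minus mock alone, and -0.49 for Trem1 and -0.35 for Stfa3, opposite for LT-HSC minus ST-HSC alone. Several of the single differences behind these signs were small, such as -0.05 for Padi4 and Stfa2 and 0.02 for Stfa3.

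Stefin probe sets assigned to more than 1 gene entered no comparison of members. In ST-HSC-derived cells, CreER minus mock was 0.41 for the probe set with 2 symbols and 0.24 for the one with 3.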

How the results depend on the processing

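No paired analysis was possible because each group holds 1 array and replicate numbers pair nothing; the additive fit itself sets CreER against mock within each population. Under quantile, cyclic loess and median normalization and the mean of all probe sets, all 160 recomputed member differences moved by at most 0.07, and 1 changed sign, Stfa3 between LT-HSC mock and ST-HSC mock with median centring (-0.02 against 0.02). Each member had 1 probe set, so the mean of all probe sets could not move member differences or their medians. The 4 median differences moved by under 0.1. At a 1.5-fold threshold the members apart numbered 3 between LT-HSC CreER and LT-HSC mock (0 at 2-fold; 4.1% of genes at 1.5-fold), 7 between ST-HSC CreER and ST-HSC mock (3 at 2-fold; 1.99%), 4 between LT-HSC mock and ST-HSC mock (2 at 2-fold; 8.08%) and 2 between LT-HSC CreER and ST-HSC CreER (1 at 2-fold; 6.84%). At 3-fold, 1 member was left between ST-HSC CreER and ST-HSC mock (0.0697% of genes). Cyclic loess put a 3rd member past 2-fold between LT-HSC mock and ST-HSC mock. Neither removing the floor nor raising it changed the 2-fold counts. All 10 members were above the floor on all 4 arrays, so removing it could not change them. The 2 members past limma's threshold for population became 1 with quantile normalization and with the mean of all probe sets. They became 0 with cyclic loess normalization and with the floor at the 75th percentile, where 5425 genes were tested. Why these counts moved was not tested. The adjusted p ranged from 0.0101 to 0.063 for Il1b and from 0.0226 to 0.0667 for Ly6g. Over all genes the population calls numbered 653, against 368 with cyclic loess and 186 with the raised floor. With median centring they split into 325 higher and 339 lower, against 394 and 259. No setting, an adjusted p of 0.1 included, called a member for CreER.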

Other observations

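Markers of 4 further cell types were measured. The 5 measured megakaryocyte genes had medians of 1.32 for LT-HSC CreER against ST-HSC CreER and 1.08 for LT-HSC mock against ST-HSC mock. In the limma population term 4 of them rose in LT-HSC-derived cells, where 3.78% of all genes did. Their medians were 0.12 for LT-HSC CreER against LT-HSC mock and 0.10 for ST-HSC CreER against ST-HSC mock. Of 6 erythroid genes, 3 were above the floor in both LT-HSC groups and 0 in both ST-HSC groups. Klf1 and Car1 were close to it, at 8.18 and 8.2 in LT-HSC CreER and 8.12 and 8.37 in LT-HSC mock. Gata1 was at 8.82 in LT-HSC CreER and 9.07 in LT-HSC mock. Epor, Alas2 and Slc4a1 were under the floor on every array. Whether erythroid cells were present was not tested. The 10 dendritic cell genes had 6, 6, 5 and 6 members above the floor in LT-HSC CreER, LT-HSC mock, ST-HSC CreER and ST-HSC mock, and Itgax, the gene of CD11c, was at 8.98 in LT-HSC CreER and 10.61 in LT-HSC mock. Of 9 lymphocyte genes 2, Cd79b and Il7r, were above the floor on every array.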
